A study of Mus musculus with 9 samples.

Results

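Thpok (gene Zbtb7b) and LRF (gene Zbtb7a) were removed together from mouse regulatory T cells (Treg), and these deficient cells were compared with Treg cells that carry the same Foxp3-YFP-Cre allele and passed the same YFP-positive gate. The comparison takes 3 deficient libraries and 3 genetic control libraries. Levels are in CPM, read counts scaled to a common library total, here after quantile normalization of the libraries to a shared distribution. The genes described are those whose mean log2 CPM over those 6 libraries was at least that of 10 CPM. There were 7594 such genes of 13698 in the table (55.4%). The deficient cells were YFP-positive, MHC class II-negative cells from female mice of a mixed C56Bl6/129 background with floxed alleles of both factors (LRFffThpokff), heterozygous for the X-linked Foxp3 allele that expresses a Cre-YFP fusion. The genetic controls were YFP-positive, MHC class II-negative cells from other females of the same background, wild type for both factors and heterozygous for that Foxp3 allele. A further 3 libraries, the animal controls, hold YFP-negative, MHC class II-negative, CD25-high cells of the deficient mice, which express the unmodified Foxp3 allele and keep both factors. All cells were from spleen and lymph node. Genotype and source of mice cannot be told apart between the deficient cells and the genetic controls, because no mouse gave both. Cre is driven by Foxp3, so cells lost the factors only once they had expressed it. Animal control values are given for some genes only, and for the others they can differ from the genetic controls. Library numbers are the mouse numbers in the sample titles.

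Thpok and LRF are related zinc finger transcription factors of the BTB family. Thpok directs developing T cells to the CD4 lineage and opposes RUNX3, the factor that drives the CD8 lineage and the cytotoxic programme, and LRF shares part of this role. Treg cells are CD4 T cells that restrain immune responses under the control of FOXP3.

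The labels were first checked against the targeted genes. Zbtb7b, on chromosome 3 from 89377644 to 89393673 (RefSeq GRCm38.p6, as are all coordinates here), lay at 0.366, 0.266 and 0.147 CPM in the deficient libraries 142114, 232614 and 432614. It lay at 92.1, 103 and 149 CPM in genetic controls 124, 8619 and 8800, and at 76.9, 106 and 98.6 CPM in the animal controls (adjusted p = 0.000103 between the deficient cells and genetic controls). The deficient libraries were thus nearly devoid of Zbtb7b RNA, which also put the gene below the level required of the genes described here. Zbtb7a, on chromosome 10 from 81135225 to 81152222, was 86.3, 78.8 and 103 CPM in the deficient libraries and 69.5, 89.8 and 111 CPM in the genetic controls, a log2 difference of 0.01 ± 0.25 (SE, adjusted p = 1). The groups overlapped, and gene totals do not say which exons were counted, so the loss of LRF was not checked by this level. Foxp3, on chromosome X, was 35.9, 34.1 and 26.5 CPM in the deficient libraries and 38.1, 36.9 and 24.8 CPM in the genetic controls, against 961, 754 and 999.7 CPM in the animal controls. Both YFP-positive groups were therefore low and overlapping, and their log2 difference was -0.03 ± 0.25 (SE, adjusted p = 0.992). Il2ra, the CD25 chain of the interleukin-2 receptor that marks Treg cells, was 551, 451 and 416 CPM in the deficient libraries and 788, 584 and 657 CPM in the genetic controls. Its log2 difference was -0.52 ± 0.14 (SE, adjusted p = 0.16), which did not pass the test.

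Of the 7594 genes, 69 differed between deficient and genetic control cells at an adjusted p under 0.05 (limma, Benjamini-Hochberg over all 13698 genes): 23 rose and 46 fell in the deficient cells. This is 0.909% of them, 0.303% higher and 0.606% lower, beside 0.869% of all genes tested, 0.336% higher and 0.533% lower, so the shares were close to the background. The 69 did not overlap between the 2 groups in any case, as was true of 1367 of the 7594 genes (18.0%), beside 15.7% of all genes tested. At an unadjusted p under 0.05 there were 855 genes. The median log2 difference over the 7594 genes was 0.02, with 3991 positive and 3603 negative. Quantile normalization favours such a balance, so it is not a result about the cells. A difference of at least 2-fold was seen for 850 genes, of which 48 passed. Because these are bulk libraries, fewer cells of a type and less RNA per cell cannot be told apart. Titles name separate mice but do not state how libraries were prepared beyond that, so p-values measure the spread between these libraries. The count depended on the libraries fitted: with any 1 of the 9 left out it was 30 to 52, lowest without genetic control 8800, and 39, 34, 30, 34, 39, 34 and 39 without genetic control 124, 8619 or 8800, deficient 142114, 232614 or 432614, or animal control 432614. It was 20 (9 higher, 11 lower) when the 6 compared libraries were fitted alone. All 69 kept their direction in every alternative run in which they were tested. Of them, 24 passed in each of the 9 fits with 1 library left out. The 8 that rose were Cd8a, Ccr9, Cd81, Igsf23, Slc25a4, Mtmr9, Gm8730 and Gm9625. The 16 that fell were Ly6a, Ly6c1, Ly6e, Itgb1, Nrp1, Nt5e, Capg, Samhd1, Fxyd5, Cd82, Smpdl3a, Actg1, Ass1, Cd4, Lgals1 and Gpr183, of which Cd82, Smpdl3a and Fxyd5 are named outside the naming rule, after their values were seen. With the 6 compared libraries alone 9 of these 24 lost their call, at adjusted p 0.0553 to 0.0794: Ccr9, Slc25a4, Nrp1, Lgals1, Ass1, Ly6e, Actg1, Smpdl3a and Cd4. Without the variance trend 9 did, at 0.0509 to 0.538: Slc25a4, Ly6e, Samhd1, Nt5e, Fxyd5, Cd82, Smpdl3a, Actg1 and Cd4.

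**Figure D1:**
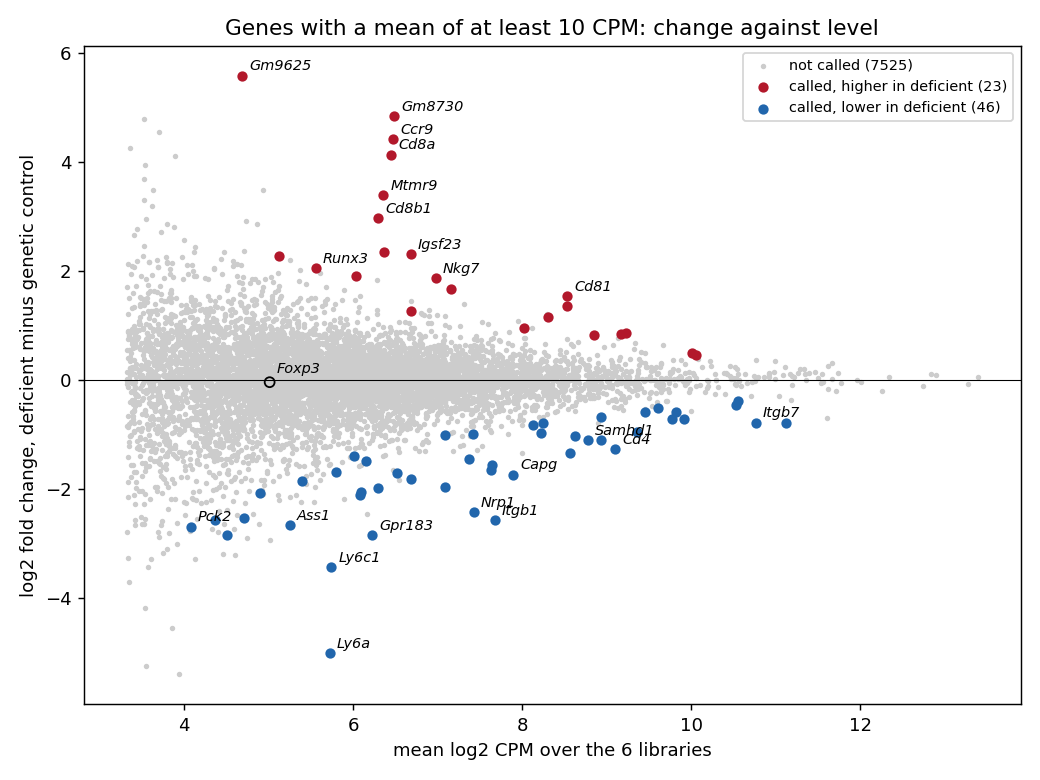
Mean log2 CPM over the 6 libraries (x axis) against the log2 difference, deficient minus genetic control (y axis), for each of the 7594 genes, with 23 called higher in red, 46 called lower in blue and the others in grey. Ly6a at -5.00 is the lowest of the labelled called genes. The pseudogenes Gm9625 (5.59) and Gm8730 (4.84) are the highest, and Ccr9 and Cd8a also lie above 4.

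The Thpok- and LRF-deficient cells carried higher levels of 4 genes of the CD8 lineage and a lower level of Cd4. Of 10 members in the list of CD8 lineage and cytotoxic genes, 4 were called higher (Cd8a, Cd8b1, Nkg7 and Runx3) and none lower. The list median was 1.85 beside 0.02 for all genes described. By sign 8 were positive and 2 negative. The negative ones, named after their values were seen, were Cst7 (-1.02, adjusted p = 0.212) and Ccl5 (-1.03, adjusted p = 0.469), and neither passed. The list has 24 genes in the table, and its median was 1.15 over those with a mean of at least 1 CPM. Cd8a, on chromosome 6 from 71373427 to 71379171, encodes the alpha chain of the CD8 co-receptor. Its level was 354, 390.2 and 357 CPM in the deficient libraries and 13.2, 27.2 and 25.3 CPM in the genetic controls, a difference of 4.14 ± 0.40 (SE, adjusted p = 0.00188). All 3 deficient libraries were more than 10 times the highest control. Cd8b1, the beta chain, was 237, 195 and 235 CPM in the deficient libraries and 15.1, 57.8 and 25.4 CPM in the genetic controls. Cd8b1 differed by 2.98 ± 0.53 (SE, adjusted p = 0.037). Genetic control 8619 was the highest control and still below each deficient library. Runx3, on chromosome 4 from 135120645 to 135177990, encodes the CD8-lineage factor named above and was 101, 90.3 and 97.1 CPM in the deficient libraries and 17.9, 19.7 and 34.9 CPM in the genetic controls, a difference of 2.05 ± 0.33 (SE, adjusted p = 0.024). The animal controls, at 91.7, 53.9 and 66.1 CPM, reached into the deficient range in library 142114, and all 3 lay above the genetic controls. Nkg7, a granule protein of cytotoxic cells, was 228, 246 and 251 CPM in the deficient libraries and 47.1, 108 and 56.5 CPM in the genetic controls. Nkg7 differed by 1.87 ± 0.30 (SE, adjusted p = 0.0237). Cd4, on chromosome 6 from 124864693 to 124888247, was 381, 329 and 355 CPM in the deficient libraries and 1026, 678 and 892 CPM in the genetic controls, and fell by 1.27 ± 0.15 on the log2 scale (SE, adjusted p = 0.00488). Each deficient library lay below each control, and the animal controls were at 819.6, 860.2 and 988 CPM. Fitted without 1 library, Cd8b1 passed in 2 of 9 (highest adjusted p 0.132, without genetic control 8800), Runx3 in 3 of 9 (highest adjusted p 0.0866, without genetic control 8619) and Nkg7 in 4 of 9 (highest adjusted p 0.0977, without genetic control 8800), while Cd8a and Cd4 passed in all 9. Cd4 lost its call with the 6 compared libraries alone (adjusted p = 0.0562) and without the variance trend (0.116), and Cd8a kept it (0.0137 and 0.00971). Prf1, the perforin gene of cytotoxic cells, lay at 50.3, 84.2 and 109 CPM in the deficient cells and 38.04, 23.4 and 11.6 CPM in the controls and did not pass (adjusted p = 0.161). The summed NK-cell markers were 59.3 to 121 CPM in the deficient libraries and 16.4 to 51.5 CPM in the genetic controls, most of it Prf1, and their part in these results was not tested. Of the other NK markers, Klrb1c was 2.66 CPM in deficient 142114 and near the lowest value of the table in 232614 and 432614, and 11.1 CPM in genetic control 124 and near the lowest value in the other 2. Gzma was 0.0248, 5.35 and 11.1 CPM in the deficient libraries and 7.68 CPM in genetic control 8619, with the other 2 at the lowest value. Eomes was 6.27, 2.05 and 0.859 CPM in the deficient libraries and 2.28, 9.10 and 4.79 CPM in the genetic controls. None of these 3 passed.

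The 250 bases before annotated starts of Runx3, Nkg7, Cd8a and Igsf23, all higher in the deficient cells, are shown because they hold, or lack, the core letters bound by RUNX factors, TGTGGT or TGCGGT, which on the reverse strand read ACCACA or ACCGCA. Both strands were searched in RefSeq promoter windows of GRCm38.p6 and capitals mark each match. Matches are at chr4:135120395-135120644 (plus strand, 134 and 126 bases before the Runx3 start), chr7:43436888-43437137 (plus strand, 83 bases before the Nkg7 start) and chr7:19953655-19953904 (minus strand, 80 bases before the Igsf23 start), and none lies at chr6:71373177-71373426 (plus strand, Cd8a). The table has a second window for Runx3 (chr4:135152295-135152544) and for Igsf23 (chr7:19950744-19950993), and neither holds a match. Pacsin1 is the other called gene that rose with a match, 178 bases before its start.
Runx3: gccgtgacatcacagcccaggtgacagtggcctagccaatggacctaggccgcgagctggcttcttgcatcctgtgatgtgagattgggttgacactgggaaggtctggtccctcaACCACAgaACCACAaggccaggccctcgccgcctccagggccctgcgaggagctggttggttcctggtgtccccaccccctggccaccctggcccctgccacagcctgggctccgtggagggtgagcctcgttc
Nkg7: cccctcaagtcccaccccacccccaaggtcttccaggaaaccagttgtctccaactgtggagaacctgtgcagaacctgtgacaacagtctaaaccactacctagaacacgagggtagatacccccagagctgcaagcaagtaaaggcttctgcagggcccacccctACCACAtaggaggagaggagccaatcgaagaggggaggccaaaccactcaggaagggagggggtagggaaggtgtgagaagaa
Igsf23: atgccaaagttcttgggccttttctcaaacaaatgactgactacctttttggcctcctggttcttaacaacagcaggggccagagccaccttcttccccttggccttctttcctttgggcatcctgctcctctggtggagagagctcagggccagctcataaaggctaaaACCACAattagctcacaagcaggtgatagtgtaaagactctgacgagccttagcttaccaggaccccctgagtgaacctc
Cd8a: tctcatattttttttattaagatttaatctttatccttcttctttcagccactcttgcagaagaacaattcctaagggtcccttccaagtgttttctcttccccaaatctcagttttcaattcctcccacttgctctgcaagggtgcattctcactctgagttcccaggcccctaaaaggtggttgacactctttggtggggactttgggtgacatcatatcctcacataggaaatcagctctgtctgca
A match was held by 4 of 22 windows of called genes that rose (18.2%), and 8 of 47 windows of those that fell (17.0%), beside 18.6% of all 32851 windows. These shares lie near the background, and a match is a description of letters only.

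**Figure D2:**
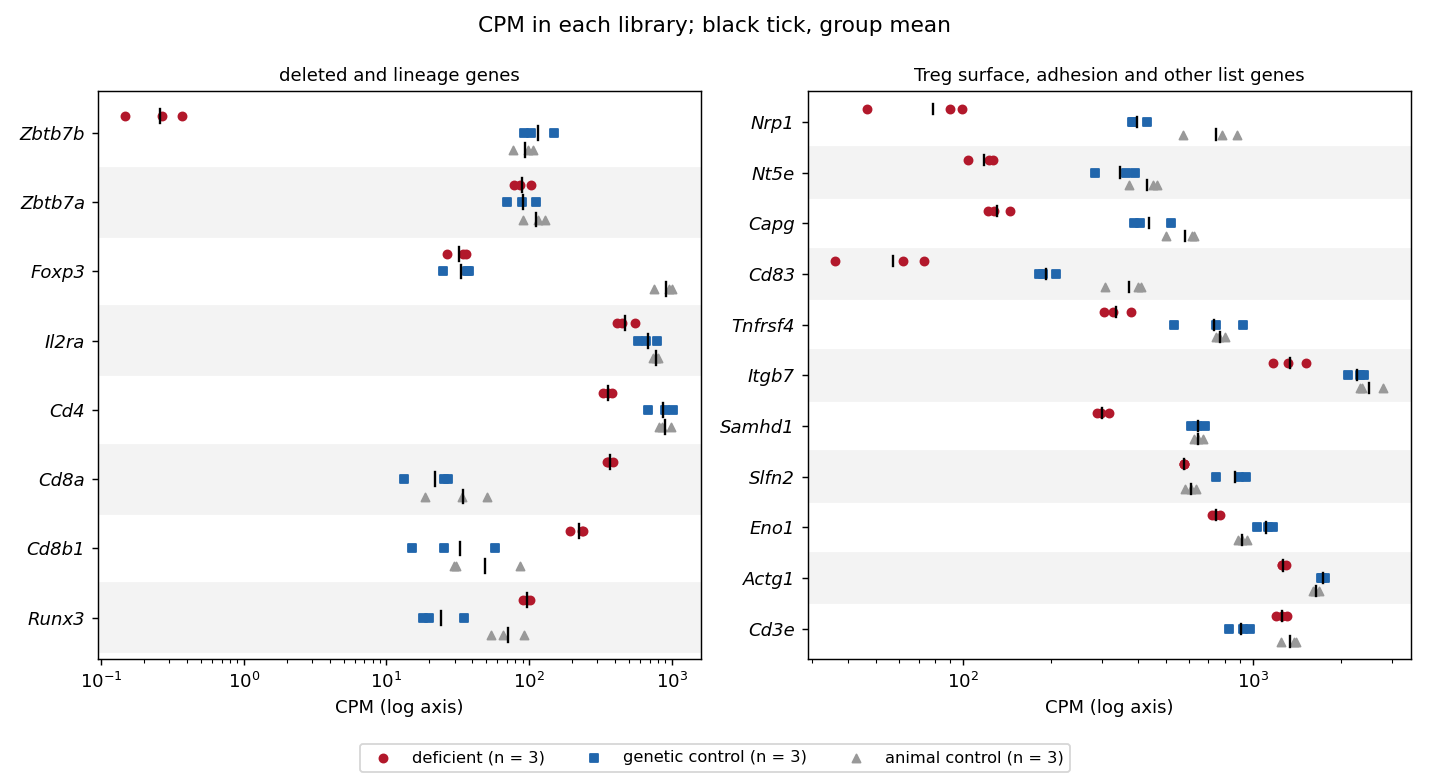
CPM (log axis) of each library for the lineage genes (left) and Treg and other genes (right), with deficient, genetic control and animal control libraries in separate colours. Deficient Cd8a is at 354 to 390 CPM against 13.2 to 27.2 CPM in genetic controls, whereas Zbtb7a overlaps.

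Outside the CD8 list, the largest rise among the genes named by the rule belonged to Ccr9, a receptor that guides T cells to the gut, on chromosome 9 from 123767211 to 123783457. It was 393, 497 and 356 CPM in the deficient libraries and 43.2, 19.0 and 8.47 CPM in the genetic controls, a difference of 4.43 ± 0.59 (SE, adjusted p = 0.00977). Deficient libraries were all above 350 CPM and the controls all below 50 CPM. Among surface and membrane proteins, Cd81, a tetraspanin, was 592, 680.4 and 635 CPM in the deficient libraries and 237, 200.2 and 216 CPM in the genetic controls. Cd81 differed by 1.55 ± 0.12 (SE, adjusted p = 0.000501), with animal controls in between, at 341, 395 and 342 CPM. Igsf23, an immunoglobulin superfamily protein, was 188, 253 and 253 CPM in the deficient libraries and 42.6, 39.7 and 57.6 CPM in the genetic controls, a difference of 2.32 ± 0.26 (SE, adjusted p = 0.00376), and its animal controls (36.5, 35.5 and 28.5 CPM) were low as well. Slc25a4, an ADP/ATP carrier of mitochondria, was 549, 586 and 657 CPM in the deficient libraries and 185, 236 and 277 CPM in the genetic controls. Slc25a4 differed by 1.37 ± 0.17 (SE, adjusted p = 0.0055). Trpm1, a cation channel, was 147, 112 and 126 CPM in the deficient libraries and 37.6, 32.4 and 31.4 CPM in the genetic controls and rose by 1.92 ± 0.28 (SE, adjusted p = 0.0177). Its animal controls were below the genetic controls, at 12.8, 15.2 and 15.2 CPM. Other called rises of the rule were Ehd1, a membrane recycling protein (2.35 ± 0.43 SE, adjusted p = 0.0414), Hmgn2, a nucleosome binding protein (1.68 ± 0.26 SE, adjusted p = 0.0229), Wdr74, a ribosome assembly protein (2.28 ± 0.42 SE, adjusted p = 0.042), and Pacsin1, an endocytosis protein (1.27 ± 0.23 SE, adjusted p = 0.0397). Wdr74 was 80.6, 76.0 and 74.6 CPM in the deficient libraries, with a genetic control mean of 17.8 CPM. Its animal controls were near the deficient cells, at 56.3, 71.4 and 68.5 CPM, and each lay above every genetic control. For Wdr74 the genetic controls differed from the animal controls by -2.04 ± 0.42 (SE, adjusted p = 0.232), which did not pass. Fitted without 1 library, Trpm1 passed in 4 of 9 (highest adjusted p 0.0785, without deficient 142114), Ehd1 in 2 of 9 (highest adjusted p 0.146, without genetic control 8619), Hmgn2 in 4 of 9 (highest adjusted p 0.0877, without genetic control 8800), Wdr74 in 1 of 9 (highest adjusted p 0.114, without deficient 232614) and Pacsin1 in 2 of 9 (highest adjusted p 0.139, without genetic control 8800).

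For 7 of the 69 called genes the range of the animal controls met that of the deficient cells: Runx3, Pacsin1, Cd3e, Atp1b3, Mtmr9, Gm8730 and Gm9625. Wdr74 narrowly missed this rule, with its highest animal control at 71.4 CPM and its lowest deficient library at 74.6 CPM. Mtmr9, a myotubularin-related phosphoinositide protein on chromosome 14 from 63519651 to 63544027, was 229, 316 and 261 CPM in the deficient libraries and 30.4, 27.5 and 19.2 CPM in the genetic controls, and 232, 357 and 165 CPM in the animal controls. It differed from the genetic controls by 3.40 ± 0.30 (SE, adjusted p = 0.00111). The genetic controls also differed from the animal controls, by -3.24 ± 0.30 (SE, adjusted p = 0.00367). Both sorted populations of the deficient mice were thus high and the genetic controls low. The pseudogenes Gm8730 and Gm9625, named after their values were seen, had the same arrangement, with Gm8730 at 289, 601 and 638 CPM in the deficient libraries and 14.1, 17.5 and 18.9 CPM in the genetic controls and 309, 592 and 565 CPM in the animal controls. Reads of a pseudogene can belong to a near-identical gene, so both are uncertain. Genotype and source of mice cannot be told apart for these genes in the deficient-to-genetic comparison. None of the 28 described genes within 5 Mb of Mtmr9 passed, which is near the background, as 0.909% of all genes described did. Xkr6, a neighbour on chromosome 14 from 63606530 to 63845706 that lies below the level and is named after its values were seen, did pass (adjusted p = 0.00188). Xkr6 was 29.5, 10.3 and 26.7 CPM in the deficient libraries, 19.2, 24.1 and 25.9 CPM in the animal controls and 0.00660, 0.0188 and 0.00891 CPM in the genetic controls, the arrangement seen for Mtmr9.

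**Figure D3:**
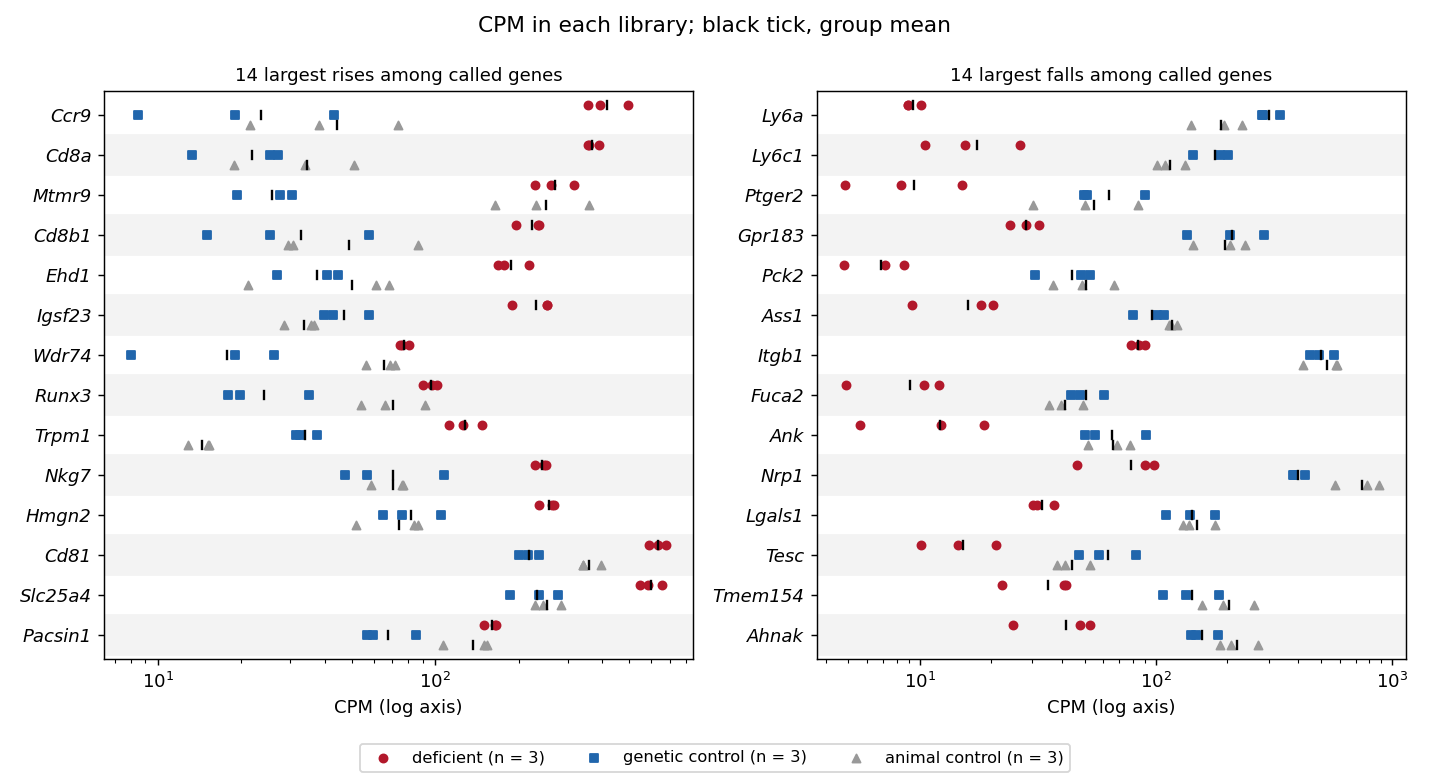
CPM (log axis) in each library of the 3 groups for the 14 largest called rises and 14 largest called falls named by the rule. Ly6a spans 8.95 to 10.1 CPM in the deficient libraries and 280 to 337 CPM in the genetic controls, and the Mtmr9 animal controls lie with the deficient cells.

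Several genes of Treg surface and effector function fell. None of 29 Treg transcription factors was called, which is near the background, as 0.909% of all genes described were called. By sign 7 were positive and 22 negative, beside 3991 and 3603 of all 7594 genes, and the median was -0.25. Differences of these 29 factors ran from -3.20 for Batf to 0.83 for Nr4a1, so a missing call does not mean an unchanged level. Batf had group means of 12.7 CPM in deficient and 73.7 CPM in genetic control cells (adjusted p = 0.0955). Maf differed by -2.54 (adjusted p = 0.215) and Irf4 by -1.82 (adjusted p = 0.43). Batf, Nr4a1, Maf and Irf4 are named after their values were seen. Of 24 Treg surface and suppressor genes, 6 fell (Nrp1, Nt5e, Capg, Cd83, Tnfrsf4 and Folr4), 1 rose (Ecm1) and the median was -0.42. Nrp1, a semaphorin co-receptor carried by thymus-derived Treg cells, was 46.5, 90.1 and 98.5 CPM in the deficient libraries and 429, 382 and 383 CPM in the genetic controls, a difference of -2.42 ± 0.27 (SE, adjusted p = 0.00428). Its animal controls were above the genetic controls, at 572, 782 and 879 CPM. Nt5e, the CD73 enzyme that makes adenosine, was 104, 126 and 123 CPM in the deficient libraries and 365, 392 and 284 CPM in the genetic controls. Nt5e differed by -1.56 ± 0.17 (SE, adjusted p = 0.00323). The groups were apart for both. Capg, an actin-capping protein, was 121, 128 and 144 CPM in the deficient libraries and 388, 407 and 520.0 CPM in the genetic controls, a difference of -1.73 ± 0.16 (SE, adjusted p = 0.00111). Cd83, an activation marker, was 61.9, 36.0 and 73.3 CPM in the deficient libraries and 208, 182 and 188 CPM in the genetic controls. Cd83 differed by -1.82 ± 0.26 (SE, adjusted p = 0.014), with animal controls above the genetic controls, at 308, 399 and 408 CPM. Tnfrsf4, the OX40 co-stimulatory receptor, was 328, 305 and 378 CPM in the deficient libraries and 924, 532 and 741 CPM in the genetic controls, a difference of -1.09 ± 0.18 (SE, adjusted p = 0.0256). Folr4, the folate receptor 4 gene, is named after its values were seen and had a difference of -0.71 ± 0.13 (SE, adjusted p = 0.0414). For Capg, Cd83 and Tnfrsf4, too, each deficient library lay below each genetic control. Ecm1, an extracellular matrix protein gene, was 860.2, 782 and 793 CPM in the deficient libraries and 537, 448 and 370.0 CPM in the genetic controls. Ecm1 differed by 0.86 ± 0.14 (SE, adjusted p = 0.024). Of 22 effector Treg genes, 4 fell (Itgb1, Ahnak, Lgals1 and Pdcd1) and none rose. By sign 18 were negative, beside 3603 of all 7594 genes described, and the median was -1.51. Lgals1, the galectin-1 gene, was 31.3, 30.1 and 37.1 CPM in the deficient libraries and 111, 177 and 139 CPM in the genetic controls, a difference of -2.10 ± 0.25 (SE, adjusted p = 0.00473). Pdcd1, the PD-1 inhibitory receptor, was 52.6, 51.3 and 48.8 CPM in the deficient libraries and 218, 130.2 and 157 CPM in the genetic controls. Pdcd1 differed by -1.69 ± 0.27 (SE, adjusted p = 0.0229). Ahnak, a large scaffold protein, was 52.6, 24.9 and 48.0 CPM in the deficient libraries and 140.2, 148 and 183 CPM in the genetic controls, a difference of -1.97 ± 0.30 (SE, adjusted p = 0.0206). Fitted without 1 library, Cd83 passed in 6 of 9 (highest adjusted p 0.0618, without genetic control 8800), Tnfrsf4 in 1 of 9 (highest adjusted p 0.11, without genetic control 8800), Pdcd1 in 4 of 9 (highest adjusted p 0.0794, without genetic control 8800), Ahnak in 6 of 9 (highest adjusted p 0.0913, without genetic control 8800), Folr4 in 2 of 9 (highest adjusted p 0.158, without genetic control 8800) and Ecm1 in 4 of 9 (highest adjusted p 0.0866, without genetic control 8619).

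Several surface antigens, a pair of integrin chains and a positioning receptor fell in the deficient cells, with Ly6a the largest fall named. Of 11 Ly6 and GPI-anchored antigens 5 fell (Ly6a, Ly6c1, Ly6e, Nt5e and Folr4), with a list median of -0.22. Ly6a, the Sca-1 surface antigen on chromosome 15 from 74994877 to 74998031, was 8.96, 8.95 and 10.1 CPM in the deficient libraries and 283, 337 and 280.3 CPM in the genetic controls. Ly6a differed by -5.00 ± 0.24 (SE, adjusted p = 3.13e-05). The deficient libraries lay close together and far below every control. Ly6c1, the Ly-6C antigen, was 26.5, 10.5 and 15.5 CPM in the deficient libraries and 144, 187 and 201 CPM in the genetic controls, a difference of -3.43 ± 0.34 (SE, adjusted p = 0.00198). Ly6e was 1930.3, 1770.0 and 1426 CPM in the deficient libraries and 2988, 2804 and 2988 CPM in the genetic controls. Ly6e differed by -0.79 ± 0.10 (SE, adjusted p = 0.0055) at a much higher level. Of 10 integrin chains 2 fell (Itgb1 and Itgb7), 9 were negative, beside 3603 of all 7594 genes described, and the median was -0.64. The positive one was Itgae, named after its values were seen. It had group means of 481 CPM in deficient and 212 CPM in genetic control cells and did not pass (1.21 ± 0.34 SE, adjusted p = 0.184). Itgb1, the beta-1 chain on chromosome 8 from 128685654 to 128733579, was 89.6, 84.8 and 78.4 CPM in the deficient libraries and 488, 565 and 449.6 CPM in the genetic controls, a difference of -2.57 ± 0.17 (SE, adjusted p = 0.000148). Itgb7, a chain of gut-homing integrins, was 1514, 1173 and 1317 CPM in the deficient libraries and 2407, 2328 and 2116 CPM in the genetic controls. Itgb7 differed by -0.78 ± 0.11 (SE, adjusted p = 0.0107). Fitted without 1 library, Itgb7 passed in 8 of 9 (highest adjusted p 0.0557, without genetic control 8619) and Igfbp4 in 2 of 9 (highest adjusted p 0.129, without genetic control 8800). Of 14 chemoattractant receptors Ccr9 rose and Gpr183 fell, with a median of -0.71, which was -1.28 over the list with a lower limit of 1 CPM. Gpr183, an oxysterol receptor that positions lymphocytes, was 32.1, 28.2 and 24.2 CPM in the deficient libraries and 136, 288 and 206 CPM in the genetic controls, a difference of -2.84 ± 0.31 (SE, adjusted p = 0.00323). Of 28 resting recirculation genes, Ly6c1 and Igfbp4 fell (median -0.11), with Igfbp4, an insulin-like growth factor binding protein gene, at a difference of -1.96 ± 0.34 (SE, adjusted p = 0.0336).

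Metabolic and other falls were spread over single genes. Ass1, an enzyme of arginine synthesis, was 9.30, 20.5 and 18.2 CPM in the deficient libraries and 80.2, 108 and 101 CPM in the genetic controls. Ass1 differed by -2.66 ± 0.33 (SE, adjusted p = 0.0063), and was the 1 called gene of 25 in urea cycle and amino acid metabolism (median 0.16). Pck2, mitochondrial PEPCK, was 7.16, 8.60 and 4.78 CPM in the deficient libraries and 48.4, 52.8 and 30.8 CPM in the genetic controls, a difference of -2.69 ± 0.43 (SE, adjusted p = 0.0237). Both were lower in every deficient library. Eno1, a glycolytic enolase, was 769, 718 and 736 CPM in the deficient libraries and 1031, 1124 and 1173 CPM in the genetic controls. Eno1 differed by -0.58 ± 0.08 (SE, adjusted p = 0.0111), and was the 1 call of 19 glycolysis genes (median 0.01). Of the remaining largest falls, Ptger2, a prostaglandin E2 receptor, differed by -2.85 ± 0.54 (SE, adjusted p = 0.0454), Fuca2, a fucosidase, by -2.56 ± 0.43 (SE, adjusted p = 0.0289), Ank, a pyrophosphate transporter, by -2.54 ± 0.47 (SE, adjusted p = 0.0447), Tesc, a calcium-binding protein, by -2.06 ± 0.39 (SE, adjusted p = 0.0447), and Tmem154, a transmembrane protein, by -2.04 ± 0.33 (SE, adjusted p = 0.0237). In fits without 1 library Pck2 passed in 3 of 9 (highest adjusted p 0.0972, without genetic control 8619), Eno1 in 7 of 9 (highest adjusted p 0.0563, without genetic control 8619), Ptger2 in 1 of 9 (highest adjusted p 0.178, without genetic control 8800), Fuca2 in 1 of 9 (highest adjusted p 0.129, without genetic control 8800), Ank in 1 of 9 (highest adjusted p 0.169, without genetic control 8800), Tesc in 0 of 9 (highest adjusted p 0.165, without genetic control 8619) and Tmem154 in 6 of 9 (highest adjusted p 0.0977, without genetic control 8800).

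The interferon-stimulated genes had 4 falls among 41 (Ly6e, Samhd1, Ifi27l2a and Slfn2) and no rise, with a median of -0.36. Samhd1, a nucleotide hydrolase, was 297, 288 and 318 CPM in the deficient libraries and 680.4, 611 and 641 CPM in the genetic controls, a difference of -1.10 ± 0.10 (SE, adjusted p = 0.00111). Slfn2, a quiescence factor of T cells, was 574, 576 and 578 CPM in the deficient libraries and 946, 896 and 743 CPM in the genetic controls. Slfn2 differed by -0.57 ± 0.10 (SE, adjusted p = 0.0383), with animal controls at 611, 582 and 635 CPM. Ifi27l2a differed by -1.01 ± 0.18 (SE, adjusted p = 0.0376). Actin cytoskeleton genes had 3 falls of 50 (Capg, Actg1 and Myl12b, median -0.02), with Actg1, the gamma-actin gene, at 1252, 1252 and 1294 CPM in the deficient libraries and 1733, 1770.0 and 1707 CPM in the genetic controls, a difference of -0.46 ± 0.06 (SE, adjusted p = 0.00586), and Myl12b, a myosin light chain, at a difference of -0.68 ± 0.13 (SE, adjusted p = 0.0447). T cell receptor complex genes had 1 rise of 36, Cd3e, a CD3 chain (0.47 ± 0.09 SE, adjusted p = 0.0398, median -0.04), and the Notch list had 1 fall of 19, Psen2, a presenilin (-1.48 ± 0.24 SE, adjusted p = 0.024, median 0.13). In fits without 1 library, Slfn2 passed in 1 of 9 (highest adjusted p 0.151, without genetic control 8619), Ifi27l2a in 2 of 9 (highest adjusted p 0.131, without genetic control 8800), Myl12b in 1 of 9 (highest adjusted p 0.16, without genetic control 8619), Psen2 in 4 of 9 (highest adjusted p 0.109, without genetic control 8800) and Cd3e in 0 of 9 (highest adjusted p 0.137, without deficient 232614).

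The other lists held 1 call each, given above, or none, and their medians follow in parentheses. Over all genes described 0.909% were called, so lists of these sizes without a call lie near the background. Lineage-choice transcription factors had Runx3 alone of 24 (median 0.07), the TNF receptor superfamily had Tnfrsf4 of 12 (0.15), co-stimulatory and co-inhibitory receptors had Pdcd1 of 18 (-0.12), and galectin, S100 and annexin genes had Lgals1 of 14 (-0.10). No gene was called among 20 cytokine receptor chains (-0.06), 25 JAK-STAT and SOCS genes (0.02), 21 immediate early genes (-0.14), 21 TGF-beta genes (-0.30), 10 BCL-2 family genes (-0.08), 8 GIMAP genes (0.29) or 25 MHC class I presentation genes (-0.20). Nor was any among 77 cytosolic ribosomal proteins (0.08), 74 oxidative phosphorylation subunits (0.08), 19 cholesterol genes (-0.08), 24 cell cycle genes (-0.05) or 27 lysosome genes (0.27). The lowest adjusted p in a list with no call was that of Il6ra, a chain of the interleukin-6 receptor, at 0.0548, followed by H2-Q6, a class I heavy chain, at 0.0558, and Gimap7 at 0.0559. All 3 passed in some alternatives, and H2-Q6 did so without deficient 232614 (adjusted p = 0.00702). Rora, a nuclear receptor, was 27.3, 20.02 and 19.3 CPM in the deficient libraries and 69.2, 73.5 and 51.8 CPM in the genetic controls and did not pass (-1.55 ± 0.35 SE, adjusted p = 0.0904), nor did the kinase gene Tyk2 (-1.41 ± 0.30 SE, adjusted p = 0.0788, and 0.0444 without animal control 232614) or the protease gene Furin (-2.23 ± 0.48 SE, adjusted p = 0.0811, and 0.0458 in the fit over the described genes alone).

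**Figure D4:**
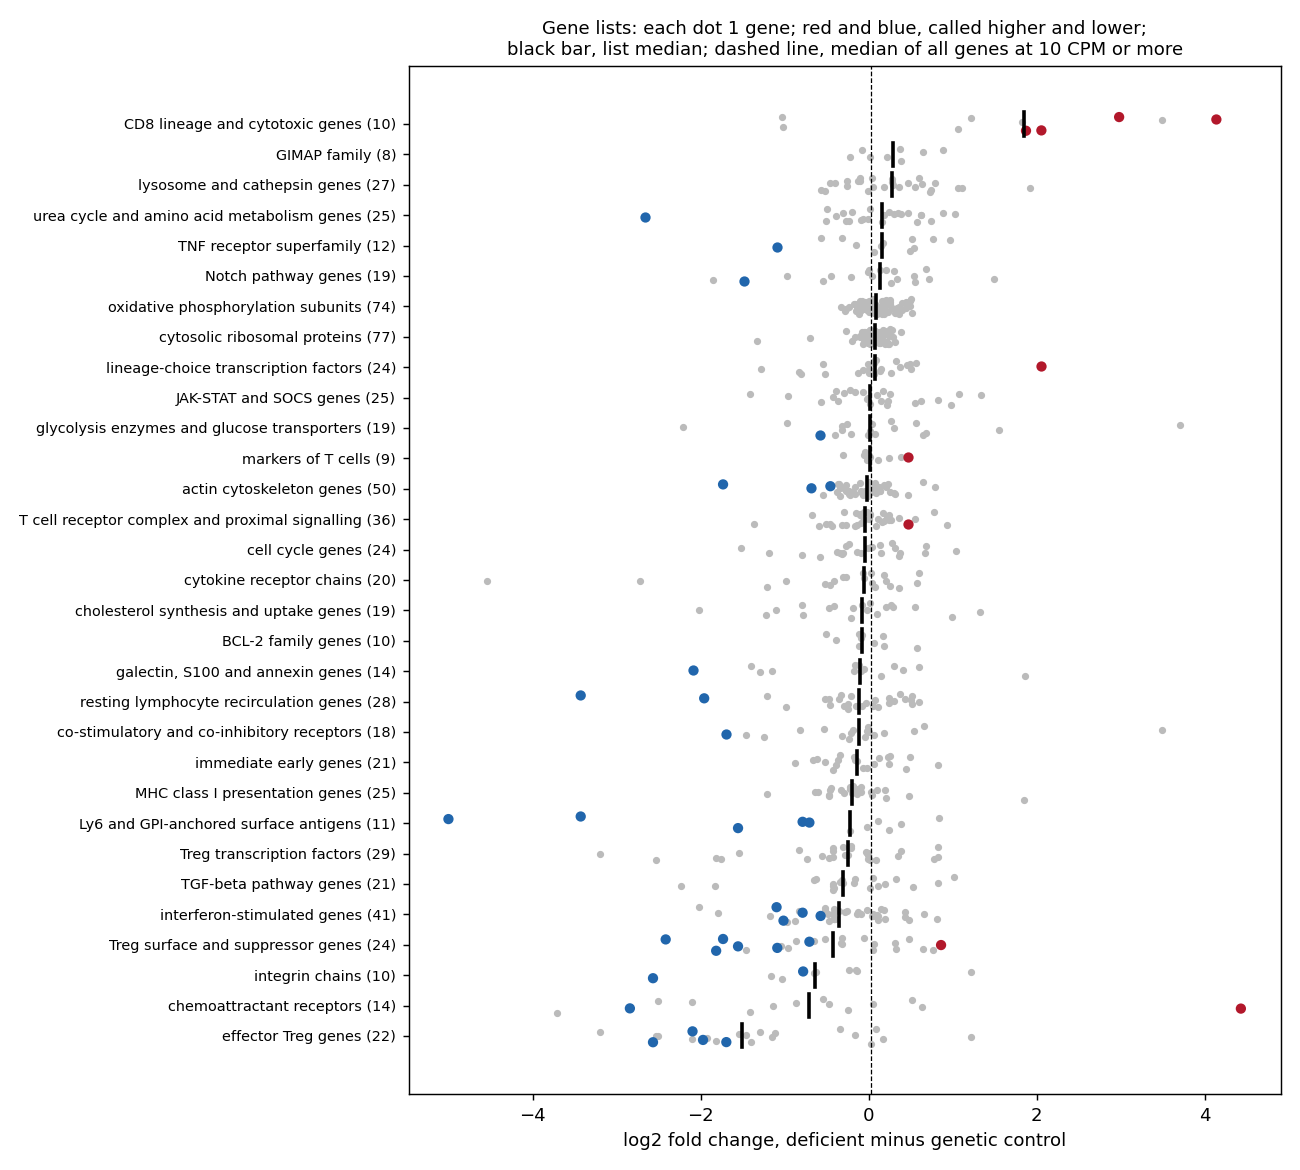
Log2 difference, deficient minus genetic control, of each gene in the lists with at least 8 members, with dots for genes, a bar for the list median and a dashed line for the median of all 7594 genes at 0.02. The CD8 lineage list has its median at 1.85 (1.15 with a minimum of 1 CPM) and the effector Treg list at -1.51.

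Markers of other cell types the gate could hold were summed in each library. B-cell markers lay at 99.7 to 277 CPM in the deficient libraries and 123 to 249 CPM in genetic controls, with Ebf1 and Fcrla under 1 CPM in all 6. Within that list Cd79b, a B-cell receptor chain, was 50.8, 45.0 and 67.1 CPM in the deficient libraries and 18.1, 12.6 and 22.5 CPM in the genetic controls, without overlap, and did not pass (1.63 ± 0.38 SE, adjusted p = 0.0983). Plasma-cell markers lay at 144 to 192 against 236 to 369 CPM, most of it Xbp1, which is also in the list of Treg transcription factors. Xbp1 was 144, 137 and 180 CPM in the deficient libraries and 231, 280 and 255 CPM in the genetic controls. Igj was 49.1 CPM in deficient 232614 and 88.5 CPM in genetic control 8619, and under 1 CPM in the others compared. Sdc1 overlapped between the groups. Myeloid markers lay at 19.4 to 80.5 against 19.4 to 330 CPM and erythroid markers at 0.85 to 81.1 against 0.59 to 130 CPM, with genetic control 8619 and deficient 232614 the highest of their groups. Gamma-delta markers lay at 7.81 to 14.2 against 9.95 to 23.6 CPM, and follicular helper markers at 178 to 206 against 384 to 409 CPM, where Pdcd1 was the 1 call of 4 members (median -0.87). No gene was called among the 2 B-cell, 1 plasma-cell, 1 myeloid and 1 NK members, and no erythroid or gamma-delta marker reached the level. Of 9 T-cell markers Cd3e rose (median 0.01), and their sum was 7041 to 7802 against 6591 to 7767 CPM. The part of these cells in the results was not tested. Without both libraries highest in myeloid and erythroid markers, a fit chosen after seeing the data, 18 genes were called (6 higher, 12 lower). Near the level threshold, Skap2, Hdac5 and Shq1 (mean log2 CPM 3.316, 3.318 and 3.32) lay just outside and Qser1, Isoc2b and Rbbp9 (3.322, 3.324 and 3.325) just inside. Another 50 genes below the level were called, 23 higher and 27 lower.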

How the data were processed

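RNA-seq was measured in 9 libraries of sorted Treg cells, 3 in each of 3 groups taken from the sample titles. The authors deposited 1 table of log2 CPM values. Per the submitters' processing notes, the tools were bcl2fastq 1.8.4, the aligner STAR 2.4.0h and limma, and the genome build was mm10. The deposited log2 values share their lowest and highest value, -7.77 and 13.42, in all 9 libraries, as quantile-normalized columns do, so the depth of each library is unknown and no counting interval can be given. After 4 exact duplicate rows were dropped, 13698 genes were fitted with limma 3.58.1 (R 4.3.3, trended variance) over all 9 libraries, and p-values were adjusted by Benjamini-Hochberg over all genes with a threshold of 0.05. An exact permutation test of 3 against 3 cannot give a p below 0.1 and was not used. Values printed as CPM are 2 to the power of the deposited log2 values. There were 0 columns without a sample.

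The members, the 38 gene lists and the rules were chosen with earlier results of these data known. The genes named are the 8 lineage and Treg genes given first, the 14 largest called rises and 14 largest called falls (without predicted genes, clones and receptor segments), and up to 4 called members of each list, or the member with the lowest adjusted p where none was called. Genes with a group mean under 1 CPM have no fold. Deficient and animal control libraries share mouse numbers, so the fit with the mouse as a block was an alternative. The residuals of libraries of the same mouse correlated at 0.0379, 0.0172 and 0.0138, against -0.0250 to 0.00653 for other pairs. Other alternatives were fits of the 6 libraries, no trend, array weights, a robust prior, equal medians, added pseudocounts of 1 and 5, member genes alone, a minimum of 1 CPM, each library left out, other level thresholds, and 3 chosen after seeing the data. Promoters are from RefSeq (GRCm38.p6) and were searched with Python 3.11.15.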

Additional observations from a re-analysis of the deposited data

How the results depend on the processing

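The count of 69 called genes (23 higher, 46 lower) was 80 with array weights, 66 with a robust prior, 68 with equal medians, 69 and 63 with 1 and 5 CPM added, 86 over the described genes alone and 57 over genes of at least 1 CPM. Setting equal medians could change little, because the libraries already share a distribution. With the 6 compared libraries alone it was 20 (9 higher, 11 lower), and without the trend 18 (8 and 10), so the share that rose went up. With the mouse as a replicate block, 68 were called (22 higher, 46 lower), and the block ended the call of Saraf alone, at an adjusted p of 0.0509. Leaving out 1 library gave 30 to 52 in all, 8 to 19 higher and 19 to 33 lower. Of the settings chosen after seeing the data, leaving out genetic control 8619 with animal control 232614 gave 18 (10 higher, 8 lower), leaving out genetic control 8619 with deficient 232614 gave 18 (6 higher, 12 lower), and leaving out Gm8730 and Gm9625 gave 64 (19 higher, 45 lower). The first joint omission was run before the second, which follows the marker sums. Capg, Cd8a, Itgb1, Cd81, Ly6a, Gpr183, Mtmr9, Gm8730 and Gm9625 passed in every alternative that tested them. No direction reversed among the 69 called genes in the alternatives that tested them, and the cause of the lost calls was not tested. With a minimum of 1 CPM the list medians were 1.15 (CD8 lineage), -0.52 (Treg surface), -1.28 (chemoattractant receptors) and -1.14 (follicular helper). Depth is unknown, so a low value cannot be given a counting error.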
